A study of Mus musculus with 4 samples.

Results

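The cellular iron and heme genes Fth1, Ftl1, Ncoa4, Tfrc, Slc11a2, Slc11a1, Slc40a1, Cp and Hmox1 were followed in CD45+ cells of the injured mouse brain. They were chosen by symbol, as 9 of the 32285 genes counted in each of 8 single-cell matrices, and all 9 were found and passed the filter on low counts in every comparison below. The cells were sorted from thalamus and hippocampus (HPC) of C57B6/J mice, all with cortical brain injury, so neither region has an uninjured group. CD45 marks leukocytes and, at lower levels, microglia. The study's methods describe a surgical ablation of the sensory and motor cortex (CAI) and 4 mice pooled per region, and the labels list Cell Multiplexing Oligos, tags that mark the cells of a suspension. The 4 matrices of a region are called sets 1 to 4 here and were taken as 1 mouse each, which the labels do not state, nor do they give sex, age or day after injury. Each region was 1 library, and a region effect cannot be told apart from a library effect.

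Iron enters most cells as transferrin-bound iron through the transferrin receptor, is carried out of the endosome, and is either used, stored in ferritin or exported. Ferritin is a hollow shell of heavy and light chains, and its breakdown in autophagy returns iron to the cell. Macrophages, and microglia as the resident macrophages of the brain, also gain iron from the heme of engulfed material, which heme oxygenase opens to release iron and biliverdin. Much of the control lies after transcription: iron regulatory proteins bind a hairpin, the iron-responsive element, which in a 5′ UTR blocks translation and in the transferrin receptor's 3′ UTR protects the mRNA. mRNA counts therefore do not give the amount of these proteins, and neither protein nor iron was measured.

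The hairpin is shown here because, where a gene carries it, its place bears on whether iron acts on translation or on the mRNA itself. The annotated UTRs (GENCODE vM21, GRCm38) were searched on the gene's own strand for CNNNNNCAGTGN with all 5 base pairs formed between the letters before the loop and those after it, G:T pairs allowed. Capitals mark the bulged C and the 6-base loop. A match stood in the 5′ UTR of Fth1 at chr19:9982732-9982760 (plus strand), of Ftl1 at chr7:45459779-45459807 (minus strand) and of Slc40a1 at chr1:45925465-45925493 (minus strand), and 4 stood in the 3′ UTR of Tfrc, at chr16:32631219-32631247, chr16:32631598-32631626, chr16:32631663-32631691 and chr16:32631710-32631738 (plus strand).
Fth1: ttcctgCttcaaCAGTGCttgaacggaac
Ftl1: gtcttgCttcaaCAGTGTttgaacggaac
Slc40a1: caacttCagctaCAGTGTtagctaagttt
Tfrc site 1: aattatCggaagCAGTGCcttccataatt
Tfrc site 2: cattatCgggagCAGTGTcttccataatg
Tfrc site 3: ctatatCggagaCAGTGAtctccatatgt
Tfrc site 4: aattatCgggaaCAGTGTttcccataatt
Such a match occurs in the 5′ UTR of 0.148% of annotated genes (31 of 20916) and in the 3′ UTR of 0.594% (129 of 21707). The Slc40a1 match lies in 1 of its 4 annotated transcripts, the Ftl1 match in 1 of 2, the Fth1 match in 4 of 5 and the Tfrc matches in 1 of 3. The other 5 genes held no match with all 5 pairs in this annotation. Slc11a2 came closest, with 4 pairs at chr15:100395153-100395181 in its 3′ UTR (minus strand). The rule misses hairpins with an unpaired position, so lacking a match does not show that a gene lacks the element.

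All 9 genes are annotated as protein coding. Fth1 spans chr19:9980598-9985098, Ftl1 chr7:45457944-45459884, Ncoa4 chr14:32159865-32179855, Tfrc chr16:32608920-32632794, Slc11a2 chr15:100387898-100425072, Slc11a1 chr1:74375195-74386062, Slc40a1 chr1:45908068-45926523, Cp chr3:19957054-20009145 and Hmox1 chr8:75093621-75100589. Ftl1 has processed copies in the genome that can share reads with it. In microglia-gated cells the copy Ftl1-ps1 held 981 UMIs (unique molecular identifiers, 1 per captured mRNA) against 169299 for Ftl1.

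Of 29190 deposited cells, 24939 had 200 to 7500 genes and at most 2% mitochondrial UMIs, between 2072 and 5389 per set, with a median of 4261.5 to 4657 UMIs per cell. Cells were sorted into classes by how many markers of fixed lists they held, and none of the 9 genes took part. The microglia gate (7 of 12 markers) took 18460 cells, of which 12455 were homeostatic-gated (at least 6 of 8 homeostatic markers such as P2ry12 and Tmem119, at most 1 DAM marker) and 2724 were DAM-gated (at least 3 of 9 disease-associated microglia markers such as Cst7, Lpl and Itgax). DAM-gated cells numbered 2148 (thalamus) and 576 (HPC), between 34 and 795 per set, and 1026 of the microglia-gated cells sat exactly at 3 DAM markers and 2015 just below at 2. Median depth was 6188 UMIs in DAM-gated and 4546 in homeostatic-gated cells. HPC set 1 stood apart from the other HPC sets: 80.5% of its cells passed the filters against 92.9% to 95.6%, and several iron genes lay well above the other 3. Region differences of the 9 genes in microglia are therefore given with and without it. Those of other genes and other cell classes include it. In the thalamus sets 80.4% to 87.9% passed, a range that holds HPC set 1. No barcode was shared between sets of a region, and 65 were shared between the regions. Levels below are UMIs per 10000 of all gene UMIs of the cells summed.

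The ferritin chains, heme oxygenase and the importers were higher in DAM-gated than in homeostatic-gated cells, and the iron exporter and the ferritin cargo receptor were lower. Sums per set were compared with edgeR's quasi-likelihood test, the set as a block, and a gene was called at a Benjamini-Hochberg adjusted p below 0.05 over all genes tested. All 9 genes were called, 7 higher and 2 lower, with a median log2 fold change of 0.81 against -0.02 over all genes. The background was high: 20.8% of all genes tested were called higher and 20.2% lower. The 9 genes were chosen with earlier results of these data known, so these counts do not test iron genes as a group.

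Fth1 encodes the ferritin heavy chain, which oxidizes iron for storage. In homeostatic-gated cells it lay at 32.5, 22.5, 22.8 and 22.7 UMIs per 10000 in HPC sets 1 to 4, and at 30.6, 28.6, 25.4 and 27.5 in thalamus sets 1 to 4. In DAM-gated cells of the same sets it lay at 75.1, 75.5, 70.4 and 67.7 in the HPC and at 59.7, 75.6, 64.1 and 65.0 in the thalamus. The lowest DAM value was above the highest homeostatic value, and HPC set 1 was the highest of the homeostatic HPC sums. The fold was 2.87 (95% interval 2.57 to 3.21), with a log2 fold change of 1.52 ± 0.08 (SE, 8 sets, edgeR adjusted p = 4.00e-13).

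Ftl1, the ferritin light chain, which helps the iron core form, followed the same pattern. Homeostatic-gated cells held 16.5, 10.6, 10.8 and 10.8 UMIs per 10000 in HPC sets 1 to 4 and 15.9, 13.01, 12.7 and 12.8 in thalamus sets 1 to 4. DAM-gated cells held 36.4, 27.2, 38.2 and 32.03 in the HPC and 37.2, 31.1, 35.5 and 34.4 in the thalamus. The 8 DAM values lay above the 8 homeostatic values, and set 1 was the highest homeostatic sum in both regions. The fold was 2.91 (2.64 to 3.21, adjusted p = 3.71e-14 in edgeR).

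No change in the proportion of the chains was found. The log2 ratio of Fth1 to Ftl1 UMIs changed by -0.02 ± 0.22 (SD, n = 8 sets) from homeostatic-gated to DAM-gated cells, up in 4 of 8 sets, with an exact two-sided sign-flip permutation p of 0.789. Between regions the ratio over microglia-gated cells was 0.96 ± 0.18 for the thalamus against 1.08 ± 0.05 for the HPC (SD, n = 4 sets each), and the exact permutation p was 0.286. The change between states was smaller than its SD over sets. The region difference was smaller than the SD of the thalamus sets and larger than that of the HPC sets.

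Single cells showed the same order. Fth1 had a median of 32 UMIs in DAM-gated and 11 in homeostatic-gated cells, and Ftl1 of 17 and 5. These medians carry the depth difference of the states. The chains were detected in nearly every microglia-gated cell, Fth1 in 99.3% and Ftl1 in 97.6%, leaving little room for a change in the share of cells.

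**Figure D1:**
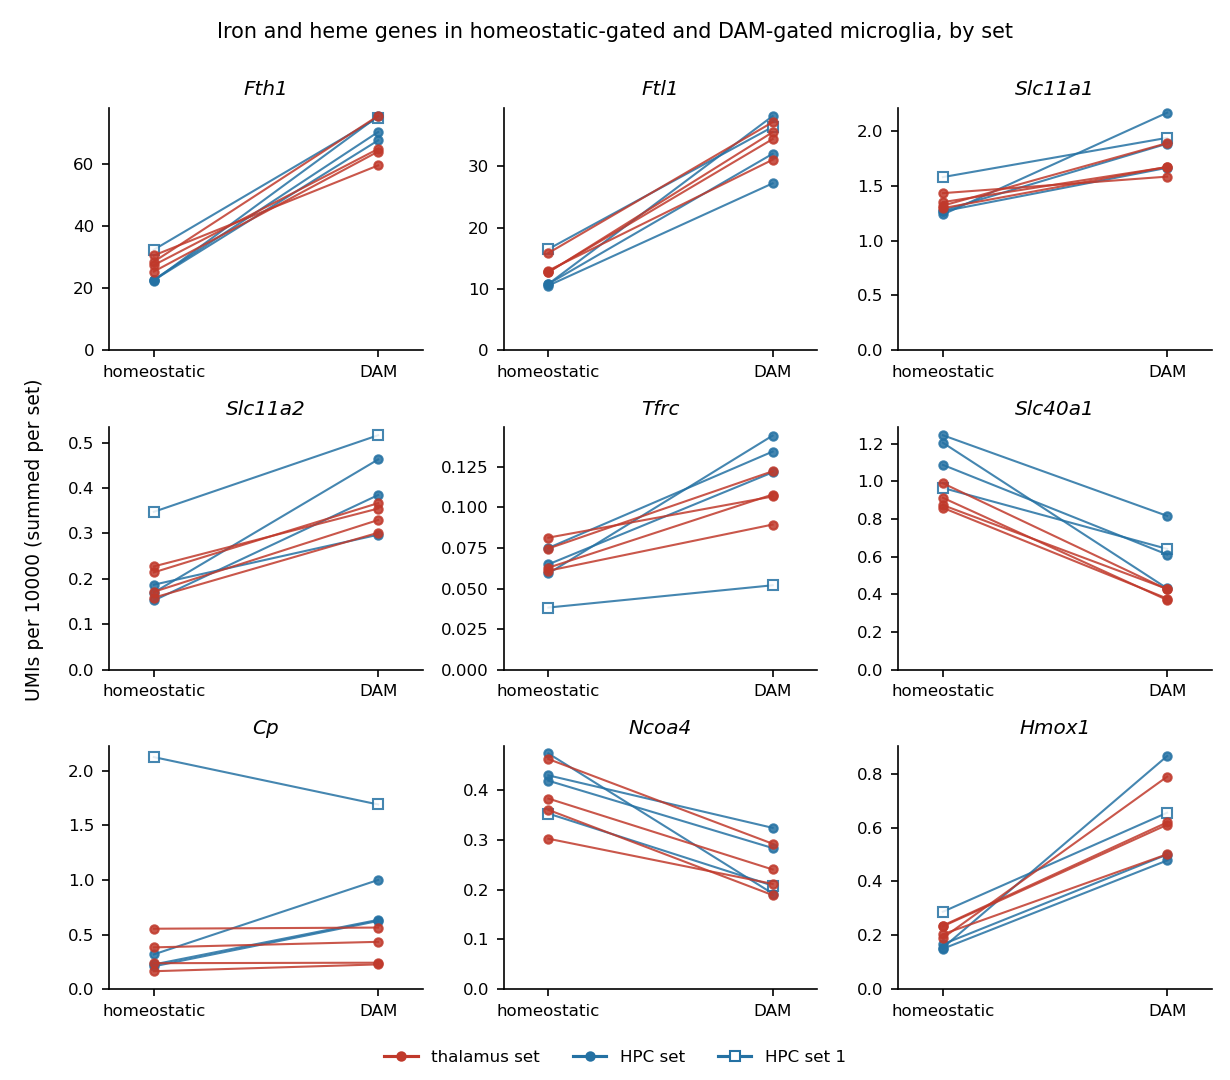
Level of each of the 9 iron and heme genes (y axis, UMIs per 10000, own scale per panel) in homeostatic-gated and DAM-gated microglia, each line joining the sums of 1 set, coloured by region. Fth1, Ftl1 and Hmox1 were higher and Slc40a1 and Ncoa4 lower in DAM-gated cells of 8 of 8 sets, while Cp was higher in 7 of 8.

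Ncoa4, the cargo receptor that delivers ferritin to the lysosome, moved opposite to ferritin. Homeostatic-gated cells ranged from 0.302 to 0.474 UMIs per 10000 and DAM-gated cells from 0.189 to 0.324. The ranges overlapped between sets, but DAM-gated cells were lower in each of the 8 sets. The fold was 0.689 (0.609 to 0.780, adjusted p = 2.14e-05 in edgeR).

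Tfrc, the transferrin receptor that takes up transferrin-bound iron, had the fewest UMIs of the 9, with 174 over all DAM-gated cells. It rose 1.75-fold (1.40 to 2.18, edgeR adjusted p = 0.000160), from 0.0383 to 0.0814 UMIs per 10000 in homeostatic-gated cells to 0.0520 to 0.144 in DAM-gated cells. The DAM value of HPC set 1 lay within the homeostatic range, and every set was higher in its own DAM-gated cells.

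The endosomal metal transporters differed in size of change. Slc11a2 (DMT1), which moves ferrous iron out of the endosome, rose 1.94-fold (1.69 to 2.24, edgeR adjusted p = 4.09e-08). Its levels were 0.153 to 0.348 UMIs per 10000 in homeostatic-gated and 0.297 to 0.516 in DAM-gated cells, and the overlap came from HPC set 1, the highest set in both states. Slc11a1 (NRAMP1), the metal transporter of the phagosome membrane, rose 1.44-fold (1.33 to 1.57, edgeR adjusted p = 1.01e-07), from 1.24 to 1.58 UMIs per 10000 to 1.58 to 2.16.

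Slc40a1 encodes ferroportin, the only known cellular iron exporter. In homeostatic-gated cells it lay at 0.966, 1.21, 1.25 and 1.09 UMIs per 10000 in HPC sets 1 to 4 and at 0.874, 0.913, 0.990 and 0.860 in thalamus sets 1 to 4. In DAM-gated cells it lay at 0.642, 0.432, 0.817 and 0.612 in the HPC and at 0.430, 0.371, 0.427 and 0.378 in the thalamus. Every DAM value was below every homeostatic value, and the thalamic DAM sums were the lowest of the 16. The fold was 0.536 (0.478 to 0.601, edgeR adjusted p = 4.27e-09).

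Hmox1, heme oxygenase 1, which opens the heme ring and frees its iron, rose most in fold. Homeostatic-gated cells held 0.288, 0.167, 0.154 and 0.150 UMIs per 10000 in HPC sets 1 to 4 and 0.234, 0.236, 0.191 and 0.204 in thalamus sets 1 to 4. DAM-gated cells held 0.655, 0.500, 0.865 and 0.478 in the HPC and 0.610, 0.619, 0.789 and 0.501 in the thalamus. The states did not overlap. The fold was 3.16 (2.72 to 3.67, edgeR adjusted p = 1.55e-11).

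Hmox1 was spread unevenly over cells. It was detected in 11.9% of microglia-gated cells, the highest cell held 97 UMIs, and the 1% of cells with most Hmox1 carried 28.4% of its UMIs. Within the gates compared, the highest cell held 4 UMIs in homeostatic-gated and 64 in DAM-gated cells. The top 1% of cells carried 21.2% and 20.1% of the UMIs. The share of cells with a UMI shows whether more cells held Hmox1, and does not weigh the few high cells. With each cell thinned to 2000 UMIs (157 homeostatic-gated and 60 DAM-gated cells fell short and were left out), the expected share with Hmox1 was 2.97% to 5.33% per set in homeostatic-gated and 8.18% to 13.3% in DAM-gated cells, higher in 8 of 8 sets. Without thinning the shares were 6.70% to 12.1% and 21.2% to 32.4%. T or NK cells, which served as the measure of free RNA at a median depth of 3589 UMIs, held 0% to 0.955% after thinning. The thinned shares of Slc40a1 were 14.8% to 21.2% in homeostatic-gated and 6.71% to 12.96% in DAM-gated cells, lower in 8 of 8 sets, against at most 0.528% in T or NK cells.

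Cp encodes ceruloplasmin, a copper ferroxidase that oxidizes exported iron for binding to transferrin. Its homeostatic-gated levels were 2.13, 0.227, 0.210 and 0.319 UMIs per 10000 in HPC sets 1 to 4 and 0.554, 0.383, 0.165 and 0.238 in thalamus sets 1 to 4. Its DAM-gated levels were 1.69, 0.635, 0.625 and 1.00 in the HPC and 0.565, 0.434, 0.227 and 0.243 in the thalamus. HPC set 1 was far above every other set in homeostatic-gated cells and was the only set in which DAM-gated cells were lower. Cp passed the threshold narrowly (log2 fold change 0.47 ± 0.17, SE, 8 sets, edgeR adjusted p = 0.0316). Without HPC set 1 the log2 fold change was 0.73 (edgeR adjusted p = 0.000856), without thalamus set 3 or HPC set 2, 3 or 4 it was 0.30 to 0.46 and not called (adjusted p 0.0561 to 0.116), and with cells gated after thinning to 2000 UMIs it was -0.0032 (adjusted p = 0.993).

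**Figure D2:**
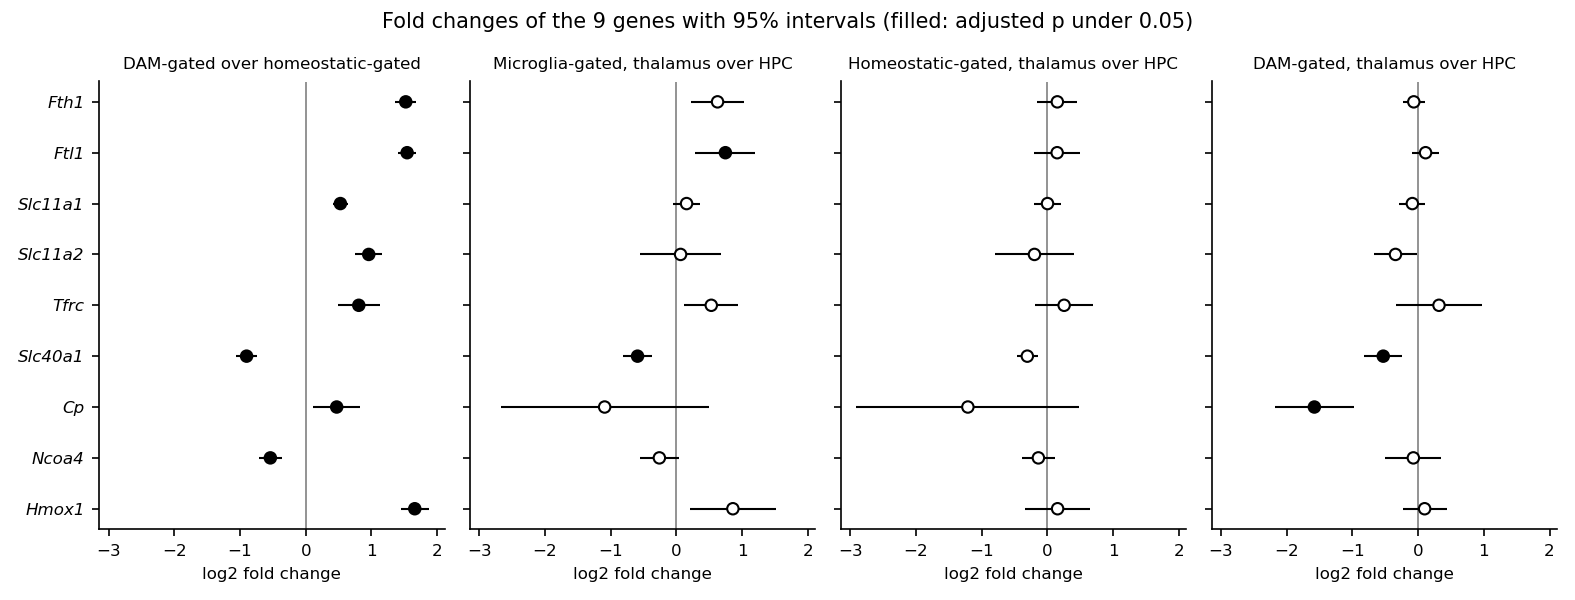
Log2 fold change (x axis) of each gene with its 95% interval from edgeR, in 4 comparisons: DAM-gated against homeostatic-gated cells, and thalamus against HPC in all microglia-gated, homeostatic-gated and DAM-gated cells. Between states the intervals lie right of 0 for 7 genes and left of 0 for Slc40a1 and Ncoa4, and between regions Cp has the widest interval in all microglia-gated and in homeostatic-gated cells. Filled points were called at an adjusted p below 0.05.

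The change between states went the same way in both regions for each of the 9 genes. Fitted within the HPC, the log2 fold changes were 1.61 for Fth1, 1.53 for Ftl1, 1.57 for Hmox1 and -0.76 for Slc40a1. Within the thalamus they were 1.39, 1.50, 1.68 and -1.02. For Cp they were 0.60 in the HPC and 0.28 in the thalamus, called in neither region alone (edgeR adjusted p = 0.0741 and 0.336). The difference of the changes between regions was tested as an interaction, in which 0.336% of all genes were called higher and 0.168% lower. None of the 9 genes was called by edgeR or DESeq2, with a lowest adjusted p of 0.680 in edgeR, where 1052 of all genes had an unadjusted p below 0.05. For Fth1 the interval of the log2 difference ran from -0.49 to 0.04 and for Slc40a1 from -0.58 to 0.07. Without HPC set 1, Cp alone of the 9 was called, with a difference of -1.39 on the log2 scale (edgeR adjusted p = 1.97e-05), where 0.623% of all genes were called higher and 0.632% lower.

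Ferritin and ferroportin moved stepwise with the number of DAM markers. With markers counted after thinning each cell to 2000 UMIs, thalamic Fth1 averaged 29.8 UMIs per 10000 in cells with 0 markers, then 38.6, 53.8, 68.4 and 74.3 with 1 to 4 markers, and 83.7 with 5 or more (4 sets at each step). Thalamic Ftl1 went from 14.2 to 47.4 over the same steps and Slc40a1 from 0.862 to 0.281. Each step of the means went in 1 direction for these genes. In the HPC, Fth1 averaged 25.8, 32.7 and 47.0 with 0, 1 and 2 markers in 4 sets, and 83.6 with 3 markers in the 2 sets with at least 20 such cells. Cp showed no such course in the thalamus, where its means stayed between 0.269 and 0.435. These steps use the same cells as the gates and are a description without a test.

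**Figure D3:**
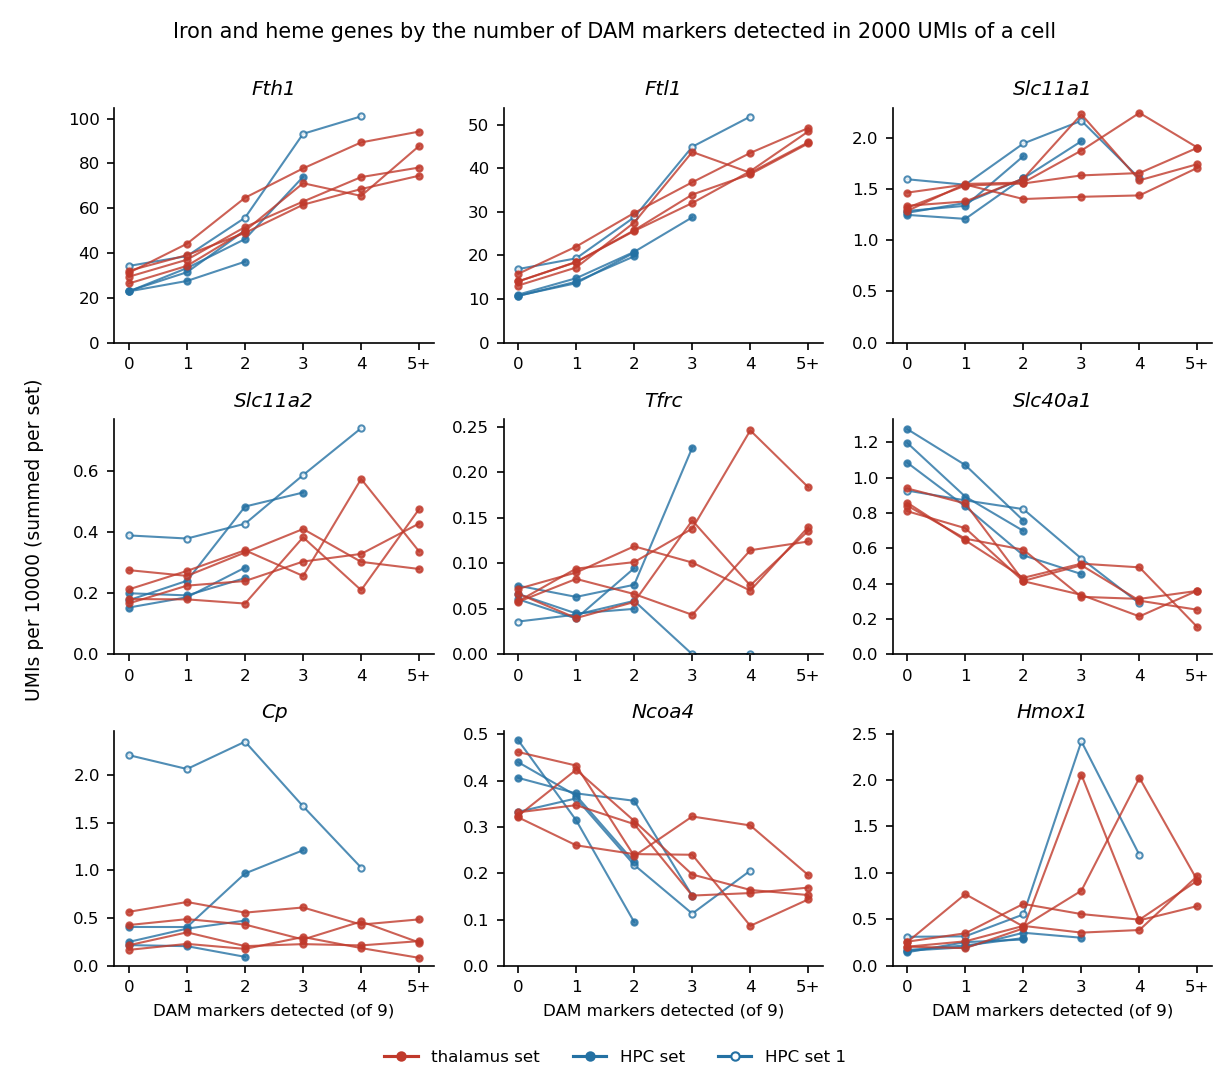
Level of each gene (y axis, UMIs per 10000) in microglia-gated cells grouped by the number of DAM markers detected in 2000 UMIs (x axis), for sets with at least 20 cells at that number, coloured by region. Fth1 and Ftl1 climb and Slc40a1 falls along the axis, while Hmox1 is scattered between sets from 3 markers on.

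Between regions, ferritin light chain mRNA was higher and ferroportin mRNA lower in thalamic microglia. Over all microglia-gated cells, 1 gene of the 9 was called higher, where 8.2% of all genes were, and 1 lower, where 3.89% were. Ftl1 was at 19.9, 11.9, 11.7 and 12.8 UMIs per 10000 in HPC sets 1 to 4 and at 28.2, 20.4, 20.1 and 22.1 in thalamus sets 1 to 4. The regions did not overlap, with HPC set 1 just below thalamus set 3. The log2 fold change was 0.74 ± 0.21 (SE, 4 sets each, edgeR adjusted p = 0.0431), and the call was lost without any 1 set other than HPC set 1 (0.60 to 0.80 on the log2 scale, adjusted p 0.0560 to 0.125).

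Slc40a1 was at 0.879, 1.13, 1.24 and 1.01 UMIs per 10000 in HPC sets 1 to 4 and at 0.599, 0.685, 0.783 and 0.632 in thalamus sets 1 to 4. All 4 thalamic values were below the lowest HPC value. The fold was 0.663 (0.572 to 0.770, edgeR adjusted p = 0.00521).

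Fth1 went the same way as Ftl1 without passing the threshold, with 40.3, 26.3, 24.4 and 27.2 UMIs per 10000 in HPC sets 1 to 4 against 47.9, 46.8, 37.9 and 43.0 in thalamus sets 1 to 4 (log2 fold change 0.62, edgeR adjusted p = 0.0522). HPC set 1 lay above thalamus set 3. Hmox1 had a log2 fold change of 0.86 (adjusted p = 0.0874 in edgeR), Tfrc of 0.53 (0.0881), Ncoa4 of -0.26 (0.220), Slc11a1 of 0.15 (0.316), Slc11a2 of 0.06 (0.904) and Cp of -1.09 (0.341). None of these 7 passed the threshold.

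The count rested on HPC set 1 and on the pairing of sets by number. Without HPC set 1, edgeR called 5 of the 9 genes higher, where 12.7% of all genes were, and 1 lower, where 8.52% were. The higher genes were Fth1 (0.84 on the log2 scale), Ftl1 (0.99), Hmox1 (1.30), Slc11a1 (0.26) and Slc11a2 (0.47), Slc40a1 was lower (-0.66), and Cp turned to 0.28. With the set number as a block, 4 were called higher (15.9% of all genes) and 2 lower (11.2%). These were Fth1 (0.66), Ftl1 (0.77), Hmox1 (0.92) and Tfrc (0.54), and Slc40a1 (-0.59) and Ncoa4 (-0.27).

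The share of DAM-gated cells differed between the regions, and the summed DAM markers in microglia-gated cells were 9.98 to 21.1 UMIs per 10000 in the thalamus and 1.27 to 4.10 in the HPC. The region difference was therefore also taken within states. In homeostatic-gated cells edgeR called 0 of the 9 genes, where 0.669% of all genes were called higher and 0.215% lower. At an unadjusted p below 0.05 edgeR counted 1682 of 12102 genes there. Slc40a1 came nearest among the 9, with a fold of 0.810 (0.727 to 0.903, adjusted p = 0.0851 in edgeR and 0.0393 in DESeq2). With the set number as a block it was called lower (log2 fold change -0.31, edgeR adjusted p = 0.00212), where 4.06% of all genes were higher and 2.35% lower. Fth1 had a log2 difference of 0.15, with an interval from -0.15 to 0.46, and Ftl1 of 0.15, from -0.20 to 0.50. Without HPC set 1, edgeR called 3 of the 9 genes higher, where 3.02% of all genes were, and 1 lower, where 1.34% were. Fth1 (0.33 on the log2 scale), Ftl1 (0.36) and Hmox1 (0.46) were higher and Slc40a1 (-0.35) lower.

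In DAM-gated cells, Slc40a1 and Cp were called lower in the thalamus, where 1.05% of all genes were, and none of the 9 was called higher, where 2.48% were. Cp had a fold of 0.335 (0.221 to 0.508, edgeR adjusted p = 0.00472) and Slc40a1 of 0.693 (0.566 to 0.848, adjusted p = 0.0414). Every thalamic value of both genes listed above was below every HPC value of DAM-gated cells. Without HPC set 1, where 1.24% of all genes were called higher and 0.38% lower, neither passed the threshold (Cp -0.97, adjusted p = 0.157; Slc40a1 -0.42, adjusted p = 0.304). Slc40a1 was called without HPC set 2 and was not called without any other single set, with values of -0.58 to -0.42. Fth1 differed by -0.07 on the log2 scale, with an interval from -0.24 to 0.10, and Ftl1 by 0.11, from -0.09 to 0.32. The smallest HPC set held 34 DAM-gated cells, and with 34 cells drawn from each set neither gene was called.

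**Figure D4:**
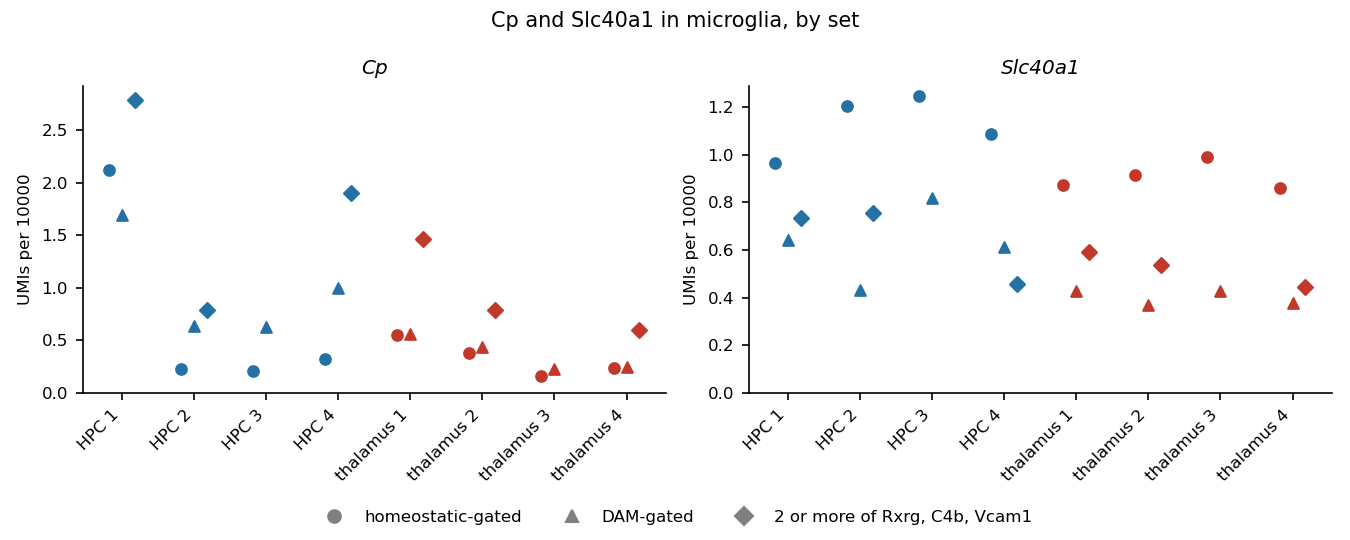
Levels of Cp and Slc40a1 (y axes, UMIs per 10000) in each set (x axis, coloured by region) for homeostatic-gated, DAM-gated and Rxrg, C4b and Vcam1 microglia (marker shapes). In DAM-gated cells every thalamic point lies below every HPC point for both genes, and HPC set 1 holds the highest Cp of each shape.

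Markers that could accompany these differences were summed in the same cells. Erythroid markers, hemoglobin genes among them, stood at 0.0867 to 0.127 UMIs per 10000 in microglia-gated cells and at 0.0540 to 0.194 in DAM-gated cells, where 4 of the 9 were at 0 in every set. The 10 monocyte markers stood at 0.557 to 2.88 in DAM-gated and at 0.162 to 0.414 in homeostatic-gated cells, and none was at 0 throughout. The 20 genes of the dissociation response stood at 73.1 to 92.7 in thalamic and 54.3 to 65.9 in HPC homeostatic-gated cells, and at 38.7 to 52.5 in DAM-gated cells. In the comparison of states 4 of its 19 tested genes were called higher and 10 lower, where 20.8% and 20.2% of all genes were. Between regions its genes were called higher in the thalamus in 7 of 19 cases over microglia-gated, 8 of 19 over homeostatic-gated and 6 of 18 over DAM-gated cells. Of all genes 8.2%, 0.669% and 2.48% were called higher there, and 0 genes of the list were called lower in each. This list thus differed between the regions, also in homeostatic-gated cells, where 0 of the 9 iron genes were called. The part of these lists in the results was not tested.

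Across cell classes the iron genes had separate orders, each given with the mean over sets with at least 20 cells. Fth1 was at 167 UMIs per 10000 in neutrophils (6 sets), 135 in monocytes (4 sets), 36.7 in microglia and 25.8 in T or NK cells (8 sets each). Ftl1 ran in the same order, at 71.7, 69.0, 18.4 and 8.33. Both chains were higher in microglia than in T or NK cells in 8 of 8 sets.

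Slc40a1 was highest in neutrophils at 2.19 UMIs per 10000, then 0.869 in microglia, with monocytes at 0.0131 and T or NK cells at 0.0130. Neutrophils lay above microglia in 6 of 6 sets. In monocytes it rested on 2 UMIs, and monocytes did not stand above the T or NK level taken as free RNA.

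Hmox1 was at 1.66 in monocytes, 0.938 in neutrophils, 0.332 in microglia and 0.0296 in T or NK cells (UMIs per 10000). The monocyte mean carried thalamus set 1 at 3.80, while the other 3 sets were at 0.897 to 1.01. Among these 4 classes Cp was highest in microglia at 0.567, with neutrophils at 0.0986, monocytes at 0.0775 and T or NK cells at 0.0494. The microglia mean carried HPC set 1 at 2.14, while the other sets were at 0.190 to 0.574. Microglia lay above neutrophils in Cp in 6 of 6 sets.

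Slc11a1 was shared by microglia (1.43 UMIs per 10000) and neutrophils (1.32), with 0.749 in monocytes and 0.0402 in T or NK cells. Slc11a2, its endosomal relative, was nearly absent from neutrophils, with 3 UMIs over 911 cells, and was at 0.246 in microglia and 0.170 in T or NK cells. Ncoa4 ran from 0.719 in neutrophils to 0.172 in monocytes, and Tfrc from 0.221 in neutrophils and 0.143 in T or NK cells to 0.0703 in microglia and 0.0263 in monocytes.

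Neighbours in these orders were compared by exact two-sided sign-flip tests over sets holding both classes. Of 27 neighbouring pairs none passed after adjustment, and the lowest adjusted p was 0.0703 (exact permutation). The smallest exact p such a pair can give is 0.00781 with 8 sets, 0.0313 with 6 and 0.125 with 4. At an unadjusted exact permutation p below 0.05 there were 8 pairs, and p was 0.00781 for microglia above T or NK cells in Fth1, Ftl1 and Hmox1. Border macrophages reached 20 cells in only set 1 of each region, where Cp was at 1.33 UMIs per 10000 in the HPC and 1.29 in the thalamus, and Hmox1 at 0.489 and 5.09.

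**Figure D5:**
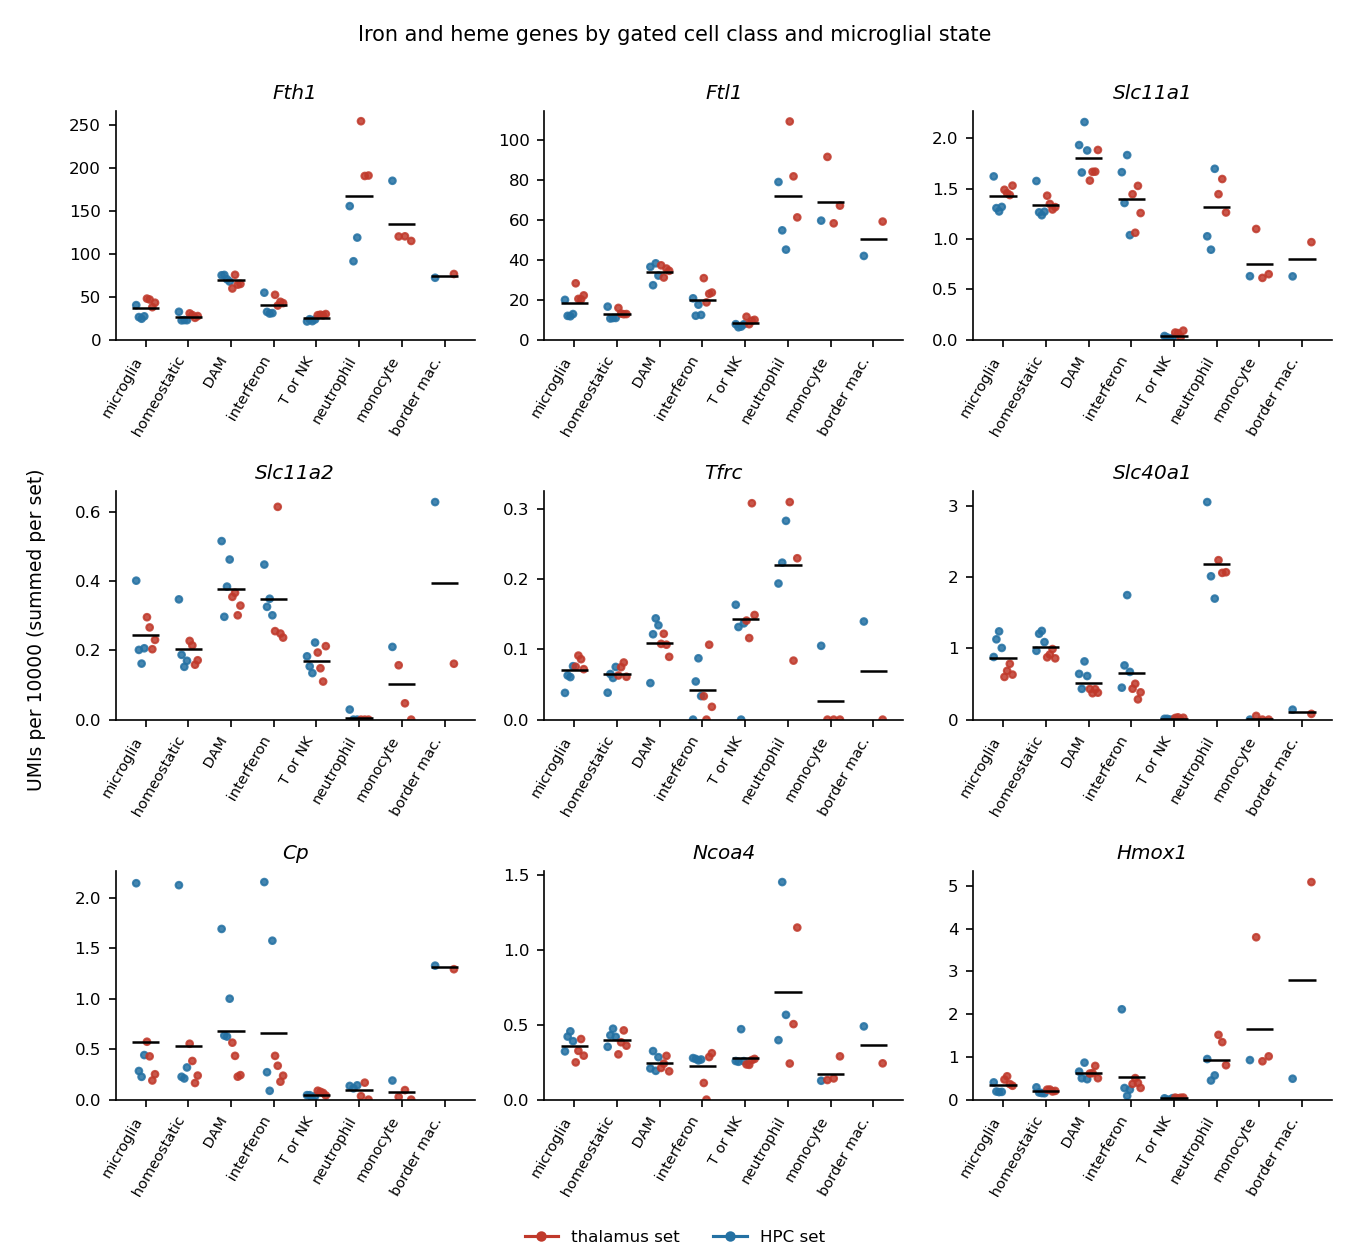
Level of each gene (y axis, UMIs per 10000, linear, own scale per panel) by cell class and, for microglia, also by homeostatic-gated, DAM-gated and interferon-gated state. Each point is 1 set with at least 20 cells, coloured by region, with a bar at the mean. Neutrophils and monocytes hold the most Fth1 and Ftl1, and Slc40a1 separates neutrophils and microglia from monocytes and T or NK cells.

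Ferritin heavy chain mRNA also differed between regions outside microglia. In T or NK cells Fth1 was at 21.2 to 23.8 UMIs per 10000 in the HPC and 28.4 to 29.8 in the thalamus, with no overlap. The mean log2 difference was 0.36, with an exact permutation p of 0.0286, the smallest that 70 assignments of 4 and 4 sets can give. Ftl1 in T or NK cells was at 6.19 to 7.73 and 7.71 to 11.5 (0.44, exact permutation p = 0.0571). This comparison was chosen after its values were seen, and here too region and library are the same split. In the same sums other lists split by region too, in UMIs per 10000. Microglia markers were at 6.35 to 7.24 in the thalamus and 5.40 to 6.05 in the HPC. The dissociation response was at 36.1 to 39.8 and 28.5 to 34.3, and DAM markers at 3.14 to 4.66 and 2.15 to 3.11. Neutrophil markers went the other way, at 0.665 to 0.705 and 0.737 to 1.04, and homeostatic markers overlapped. The part of free RNA and of cell handling in the Fth1 difference was not tested.

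Microglia with at least 2 of Rxrg, C4b and Vcam1 numbered 961, of which HPC set 1 gave 478. In the 6 sets with at least 20 of them, Cp was at 2.79, 0.787 and 1.90 UMIs per 10000 in HPC sets 1, 2 and 4 and at 1.47, 0.789 and 0.596 in thalamus sets 1, 2 and 4. Each was above the homeostatic-gated cells of its set, by 1.21 ± 0.63 on the log2 scale (SD, n = 6). Fth1, Ftl1, Slc11a1 and Hmox1 were also higher in 6 of 6 sets and Slc40a1 and Ncoa4 lower in 6 of 6. These values were looked at after the gate's high Cp was known and carry no test.

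Other iron and heme genes from fixed lists were called in both directions between states, and their counts stand beside the 20.8% of all genes called higher and 20.2% lower. Of the 18 uptake and endosomal iron genes 9 were tested, 3 called higher and 3 lower. Slc39a8, a zinc and iron importer, fell by 0.75 on the log2 scale (adjusted p = 9.76e-05, edgeR), in 8 of 8 sets. Slc46a1, a folate and heme carrier, fell by 0.49 (adjusted p = 0.000391, edgeR), in 7 of 8.

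Of 16 tested genes for iron chaperones, mitochondrial iron and iron-sulphur assembly, 5 were called higher and 2 lower, among them the mitochondrial iron importer Slc25a37, which fell by 0.40 on the log2 scale (adjusted p = 0.00124, edgeR). Heme synthesis had 2 of 11 higher and 1 lower, and heme transport and breakdown 3 of 6 higher and 2 lower.

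Of 6 tested genes of iron sensing and control, 2 were called higher and 1 lower. Hif1a, the hypoxia-inducible factor whose stability depends on an iron-containing hydroxylase, rose by 1.48 ± 0.08 on the log2 scale (SE, 8 sets, edgeR adjusted p = 9.90e-13). The oxidative stress targets of Nrf2 outside iron handling had 6 of 9 called higher and 0 lower, with a median log2 fold change of 0.75. Prdx1, a peroxidase, rose by 1.26 (edgeR adjusted p = 2.52e-12) and Txnrd1, thioredoxin reductase 1, by 0.80 (edgeR adjusted p = 8.28e-08).

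Between regions the calls of these genes stand beside the shares of all genes called. These were 8.2% higher and 3.89% lower over microglia-gated, 2.48% and 1.05% over DAM-gated, and 0.669% and 0.215% over homeostatic-gated cells. In the order of the lists above, 9, 16, 11, 6, 6 and 9 genes were tested over microglia-gated cells. With so few genes tested, the number of calls is not a result about the lists. Over all microglia-gated cells Hif1a (0.79 on the log2 scale), Prdx1 (0.73) and Glrx3 (0.28), a chaperone of iron-sulphur clusters, were higher in the thalamus, and Slc46a1 (-0.20) and Bach1 (-0.18), a heme-binding repressor of Hmox1, were lower. In DAM-gated cells Glrx3 (0.56) and Hif1a (0.50) were higher and Blvrb (-0.46), a biliverdin reductase, was lower. In homeostatic-gated cells edgeR called 0 genes of these lists. Hif1a also rose more between states in the thalamus than in the HPC, by 0.50 on the log2 scale (edgeR adjusted p = 0.0346).

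The genes closest to each iron gene were found by Pearson's r of log2(CPM + 1) over 59 sums of set and class or state. The sums share libraries and sets, microglial states are also part of their class, and r follows differences between cell classes, so it is a description. Closest to Fth1 were Cstb (r = 0.94) and Ftl1 (0.93), and to Ftl1 next Cyp4f18 (0.92) and Atp6v0c (0.92), a subunit of the vacuolar proton pump. Hmox1 was closest to Atp6v1b2 (0.87) and Atp6v0c (0.86), both of that pump.

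Slc40a1 was closest to Gm34589 (r = 0.95), Hnmt (0.93) and Tbc1d23 (0.92), and Slc11a1 to Fgd4 (0.96), Fcgr3 (0.95) and Lamp2 (0.95). Cp was closest to C4b (0.83), Hebp1 (0.81) and Hpn (0.80). For Slc11a2 the closest was Kifap3 (0.90), for Ncoa4 Stk11 (0.79) and for Tfrc Slc2a3 (0.62), the lowest of the 9 and the gene with the fewest UMIs.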

How the data were processed

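The authors counted UMIs per gene and cell with Cell Ranger against mm10 and deposited these raw counts as 8 matrices, 4 per region. The file headers name a later Cell Ranger than the methods, and whether introns were counted is not given in the sources used here. The members and gene lists were chosen with earlier results of these data known. The 12 multiplexing oligos (14.6% of all UMIs) were left out of library sizes. Doublets were not removed beyond the limit on genes. Cells were gated by markers, not clustered, and Clec7a of the DAM list was not analysed. Counts were summed per set and tested with edgeR 4.0.16 (R 4.3.3; TMM, filterByExpr, quasi-likelihood F-test), which was checked on simulated data. Sums needed 20 cells, and p-values weigh a difference against the spread between sets. The class order used a pseudocount of 0.1 UMIs per 10000 on the log2 scale. DESeq2 1.42.0, other filters and gates, thinning and leaving out sets were alternatives.

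Set numbers come from the file names. Same-numbered sets deviated together (correlations 0.499, 0.138, 0.473 and 0.170, highest other 0.149), so blocked values are given where they change a call. The 9 genes were given whatever their values. Of the other lists, at most 3 called genes per direction and comparison were named, those with the largest change among genes with at least 20 CPM in the higher group, and the most like genes by the highest r. Sequences and coordinates were read from GENCODE vM21 on GRCm38. Intervals are 95% intervals of the edgeR fold change, based on the spread between sets, and are not ranges of set values.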

Additional observations from a re-analysis of the deposited data

Results flagged for a closer look

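In groups of 4 sets, a set was singled out when the gap between it and its nearest neighbour took up more of the group's range than Dixon's 95% limit. This held in 10 of 54 groups, and 9 of the 10 were HPC set 1. The limit flags about 1 in 20 groups by chance. The groups share sets and cells, so their count cannot be set against that rate. Over microglia-gated cells HPC set 1 was high in Ftl1, at 19.9 UMIs per 10000 against 11.7 to 12.8 in the other HPC sets. It was also high there in Slc11a1 (1.62 against 1.27 to 1.32), in Hmox1 (0.403 against 0.176 to 0.190) and in Cp (2.14 against 0.226 to 0.442).

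Within homeostatic-gated cells HPC set 1 was high in Fth1, at 32.5 UMIs per 10000 against 22.5 to 22.8, and in Ftl1, at 16.5 against 10.6 to 10.8. The same cells were high in Slc11a1 (1.58 against 1.24 to 1.27), Hmox1 (0.288 against 0.150 to 0.167) and Cp (2.13 against 0.210 to 0.319). Thalamus set 1 was high in Ftl1 of homeostatic-gated cells, at 15.9 against 12.7 to 13.01. HPC set 1 also had the smallest share of cells passing the filters among the HPC sets (80.5%, against 80.4% to 87.9% in the thalamus sets). It had the most cells deposited (6695), and the part of these in its values was not tested.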

How the results depend on the processing

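Of the 9 genes, 8 kept their call between states under every alternative run, and Cp did not. Over all microglia-gated cells 2 genes were called, 4 with DESeq2 and with a 5% mitochondrial limit, 1 with a stricter gate, after thinning to 2000 UMIs and without Malat1-poor cells, 6 with the set number as a block, and 1 to 6 leaving out a set. The calls over all genes moved too, from 1566 of 12951 to 1776 with DESeq2 and 2088 with the 5% limit. They were 1391 with the stricter gate, 1216 after thinning, 1210 without Malat1-poor cells, 3514 with the block and 698 to 2758 leaving out a set. Within homeostatic-gated cells 0 became 1 with DESeq2, without a filter on low counts and with the block, and 0 to 4 leaving out a set. The calls over all genes there went from 107 to 207, 194 and 775, and to 28 to 519 leaving out a set. Within DAM-gated cells 2 became 1 with DESeq2, a stricter gate and without Malat1-poor cells, 0 with equal cells in each set, and 0 to 2 leaving out a set. The calls over all genes went from 367 to 318, 171 and 322, to 14 with equal cells, and to 150 to 439 leaving out a set. Thinning also called 2 of the 9 in DAM-gated cells, but these were Fth1 and Slc11a2, with Cp and Slc40a1 not called. Over all genes thinning called 127. Between states 8 to 9 were called leaving out a set, and in the interaction 0 to 1. Over all genes 3974 to 4627 and 24 to 151 were called. The chains' ratio ran from -0.081 to 0.012 between states and from -0.20 to -0.05 between regions leaving out a set, and the class order kept 0 pairs. The block changed no other call, and the cause was not tested.

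Values that turned in sign are log2 fold changes. Over all microglia-gated cells Slc11a2 was -0.021 after thinning. Within homeostatic-gated cells Slc11a1 was -0.016 without a filter, -0.0059 with the 5% limit, -0.011 with the stricter gate and -0.013 with thinning. Within DAM-gated cells Ftl1 was -0.12 with the stricter gate, Slc11a1 0.042 with equal cells, Ncoa4 0.26 and 0.46 with the stricter gate and thinning, and Hmox1 -0.24, -0.29, -0.11 and -0.15 with the stricter gate, thinning, no Malat1-poor cells and equal cells. Between states Cp was -0.0032 after thinning. In the interaction Ftl1 was 0.0088 without a filter, 0.052 at 5% and 0.15 thinned, Tfrc 0.048 stricter and 2.29 thinned, Slc11a1 0.0011 without a filter, Slc11a2 -0.062 stricter and -0.37 thinned, Hmox1 -0.015 with DESeq2 and -0.11 without Malat1-poor cells, and Cp 0.033 stricter and 0.58 thinned. Of these only Cp between states had been called.

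Leaving out a set, the log2 fold change over all microglia-gated cells ran from -0.090 to 0.47 for Slc11a2 and from -1.45 to 0.28 for Cp. Within homeostatic-gated cells it ran from -0.040 to 0.12 for Slc11a1, -0.33 to 0.17 for Slc11a2 and -1.54 to 0.38 for Cp, and within DAM-gated cells from -0.23 to 0.52 for Tfrc, -0.28 to 0.052 for Ncoa4 and -0.0055 to 0.25 for Hmox1. In the interaction it ran from -0.15 to 0.058 for Ftl1, -0.26 to 0.0014 for Tfrc, -0.14 to 0.028 for Slc11a1, -0.23 to 0.25 for Slc11a2, -0.059 to 0.15 for Ncoa4, -0.20 to 0.23 for Hmox1 and -1.39 to 0.058 for Cp. Over all genes, calls went from 1566 to 3514 over microglia-gated, 107 to 775 over homeostatic-gated and 367 to 584 over DAM-gated cells with the block. DAM-gated sums fell to 7 sets with the stricter gate and 6 with thinning, and the fewest cells in a set, 34, limit the values of DAM-gated HPC cells.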

Other observations

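Ferritin levels in the other microglial groups ranged from near those of homeostatic-gated cells to those of DAM-gated cells and above. Interferon-gated microglia (493 cells) had Fth1 at 39.8 to 52.3 UMIs per 10000 in the thalamus and 30.4 to 54.8 in the HPC, and Slc40a1 at 0.284 to 0.503 and 0.448 to 1.75. Microglia-gated cells in none of the gated states (2623 cells) had Fth1 at 39.1 to 44.8 in the thalamus and 29.8 to 40.4 in the HPC, between the homeostatic-gated and DAM-gated cells of every set. Cycling-gated microglia reached 20 cells in thalamus sets 1, 3 and 4, with Fth1 at 59.5, 52.9 and 58.9 and Ftl1 at 37.5, 40.7 and 31.8, against 37.2, 35.5 and 34.4 in the DAM-gated cells of these sets. In thalamus set 2, 9 cycling-gated cells held 152 Hmox1 UMIs, or 25.9 per 10000.

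Dendritic-gated cells in the 3 sets with at least 20 had Fth1 at 46.9 in HPC set 1 and at 48.2 and 53.3 UMIs per 10000 in thalamus sets 1 and 2. Their Slc40a1, Slc11a1 and Hmox1 were at 0.0649 or below. B-gated cells reached 20 in HPC set 1 alone, where Fth1 was at 19.1 and Ftl1 at 17.3, the closest the chains came to each other in any group of 20 cells. Neutrophils held more Fth1 in the thalamus (191 to 255 in 3 sets) than in the HPC (91.4 to 156 in 3 sets), a difference that was not tested.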
